A study of Mus musculus with 4 samples.

Results

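Mucins are large glycoproteins, heavily O-glycosylated, that coat epithelial surfaces, and 7 mucin genes together with 3 genes of secreted or secretory pathway proteins were read in normal mouse ureter and in ureter tumors. The 10 genes, Muc1, Muc4, Muc13, Muc15, Muc16, Muc20, Muc5b, Agr2, Tff2 and Olfm4, were followed through every probe set that the chip annotation assigns to a single 1 of them, which gave 15 of the 45101 probe sets. They stand among 18193 genes with such a probe set. The genes were selected on the basis of prior knowledge of the families and of the tumor and normal signals of these same arrays, so their differences are described without a p-value, and the standard errors (SE) come from a limma fit over all genes.

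Transmembrane mucins (Muc1, Muc4, Muc13, Muc15, Muc16 and Muc20) stay anchored in the apical membrane, where they form a glycan barrier and can signal, whereas gel-forming mucins such as Muc5b are secreted as mucus. Agr2 is a protein disulfide isomerase of the endoplasmic reticulum that mouse intestine needs to make mucus, Tff2 is a trefoil peptide secreted with gastric mucus, and Olfm4 is a secreted olfactomedin glycoprotein of intestinal crypts and of some neutrophils. Urothelium is covered by uroplakin plaques and a thin glycan layer rather than by goblet cell mucus.

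The study set 2 ureter tumor samples against 2 normal ureter samples of C57Bl/6 mice aged 6 to 8 weeks, each on 1 Affymetrix mouse genome array. The labels attach the same text to all 4 samples: R26rtTA, teto-Cre and Ncstnf/f alleles, with 1 week of doxycycline, begun when mice were 3 weeks old, to recombine Ncstn, a gene of the gamma-secretase that activates Notch. The rtTA transactivator is expressed from the broadly active Rosa26 locus, so Cre is not tied to urothelium. The labels state neither the genotype of each sample nor how many animals went into it, and they number 2 biological replicates per group. They describe isolated ureter epithelium.

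The tissue on the arrays was mixed. All 10 umbrella cell and urothelium markers were lower on both tumor arrays than on both normal arrays, and 5 of them fell past the limma test (Upk3a, Snx31, Krt20, Pparg and Upk1b), with a summed signal of 3487 and 1855 in tumors, against 34726 and 55142 in normal ureter. Fat cell markers summed to 39824 and 15667 in tumors, against 311449 and 322118 in normal ureter, and Ucp1 and the smooth muscle gene Myh11 fell. Smooth muscle markers summed to 17463 and 27266 in tumors, against 58850.3 and 47310 in normal ureter. Of 16 general epithelial markers, St14 and Cldn3 rose and 14 did not pass the test. The list summed to 112245 and 77539 in tumors, against 77686 and 107044 in normal ureter. Gene by gene, 7 of the 16 were higher in each tumor than in either normal sample, as were 29.4% of all genes tested. Among them Epcam had 17023 and 9994 in tumors, against 4002 and 3371 in normal ureter. Only 1 (Krt18) was lower in both, with 3099 and 5390, against 13581 and 20882, as were 27.7% of all genes. Of 8 plasma cell markers Igha and Jchain rose, and the list summed to 164398 and 130890.4 in tumors, against 27261 and 26649 in normal ureter. The tumor arrays were at least 4-fold apart for 1111 of 13046 genes, against 49 genes for the normal arrays. The ratio of 3' to 5' signal of Gapdh, a sign of RNA integrity, was 1.51 and 1.44 on the tumor arrays, against 0.92 and 0.923 on the normal arrays. That of Actb went the other way, at 2.47 and 2.63 on the tumor arrays, against 2.90 and 2.82 on the normal arrays. In such bulk samples, fewer cells of a type and less RNA per cell cannot be told apart, and the part of tissue mixture and RNA integrity in the values below was not tested.

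Signals are MAS5 intensities on a linear scale, and a gene entered the fit over all genes if its mean on the log2(signal + 16) scale was at or above the 40th percentile of probe sets, which corresponds to a signal of 54.6. By the probe set with the highest mean, 7 of the 10 genes reached it (Muc1, Muc4, Muc13, Muc16, Muc20, Tff2 and Olfm4) and Muc15, Muc5b and Agr2 did not. Olfm4 was past the limma threshold and was higher, which is 1 of 7, and 0 were lower, where 0.491% of all genes tested were called higher and 0.943% lower. As the genes were chosen with this contrast known, nothing is read from that count. Without either one of the normal arrays, 0 of the 7 and 0 of all genes passed. Olfm4 also missed the threshold with median centring, without the intensity trend in the limma fit and with the replicate number as a block. The tumor arrays were both higher than either normal array for 3 of the 7 (Muc1, Muc4 and Olfm4), as for 29.4% of all genes tested, and for all 3 the mean was at least 2-fold higher, as for 9.81% of all genes. They were both lower for 1 (Tff2), as for 27.7%, and at least 2-fold lower on the mean for 0, against 9.7% of all genes. The groups overlapped for 3 (Muc13, Muc16 and Muc20), as for 42.9%. Over all 10 genes, with the untested Muc15, Muc5b and Agr2 included, the median log2 difference was 0.61, against 0.03 over all genes tested. It was 1.48 on tumor replicate 1 and 0.38 on tumor replicate 2, against 0.01 and 0.04 over all genes tested. The 2 sets were filtered differently and the 10 were chosen with this contrast known, so nothing is read from these medians.

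**Figure D1:**
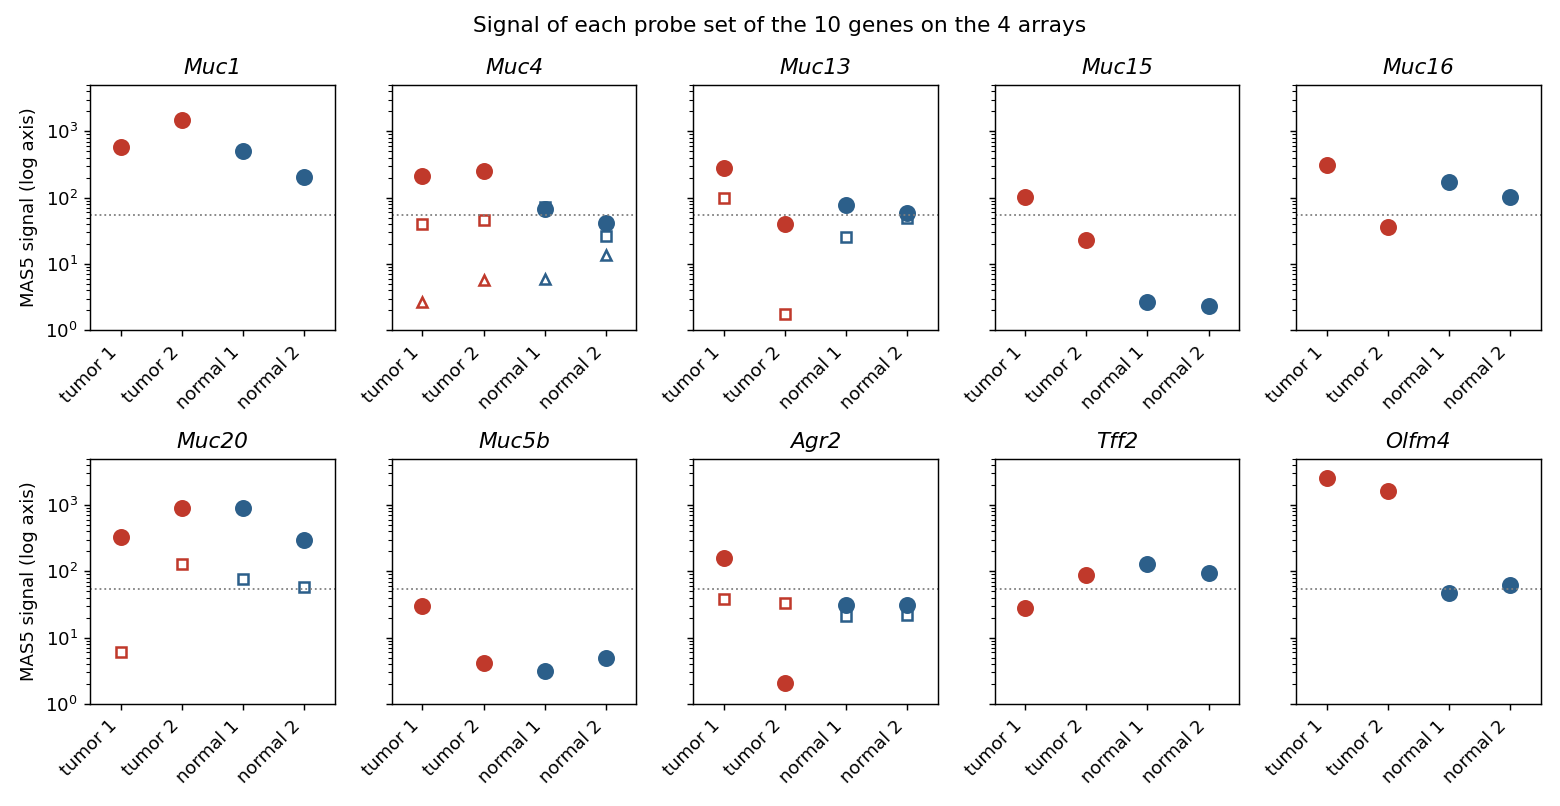
MAS5 signal (log axis) of every probe set of the 10 genes on the 2 ureter tumor arrays (red) and the 2 normal ureter arrays (blue). Filled circles are the probe set with the highest mean of each gene, open squares and triangles the others, and the dotted line is the signal of 54.6 below which genes were not tested. Olfm4 stands far above its normal arrays on both tumor arrays. By the filled circles, Muc13, Muc16 and Agr2 are high on tumor replicate 1 only.

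Olfm4 had the largest difference of the 10 genes and was bright in both tumors and dim in normal ureter. Its probe set, 1437060_at, had a signal of 2537 and 1616 in tumors, against 47.3 and 61.5 in normal ureter. The tumors were therefore far above both normal arrays, and the difference exceeded the spread in either group. The means were 2076 ± 652 in tumors and 54.4 ± 10.04 in normal ureter (SD, n = 2 each), a difference of 4.86 on the log2(signal + 16) scale (SE 0.34) or 29.1-fold. The normal mean lay just under the limit of 54.6, so the size depended on the pseudocount, and it was 5.20 with a pseudocount of 1 and 4.14 with 64. Against the normal mean the difference was 5.19 on tumor replicate 1 and 4.54 on tumor replicate 2.

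Neutrophils are a known source of Olfm4 in mice, and some markers of neutrophils and their precursors also had higher signals in the tumors. The 12 measured markers summed to 26136 and 20008 in tumors, against 802 and 741 in normal ureter. Lcn2 made up most of the sum on tumor replicate 2, and the other 11 summed to 25219 and 1747 in tumors, against 711 and 660.2 in normal ureter. Of the 8 that were tested 0 passed, with a median difference of 2.86, and 5 were higher in each tumor than in either normal sample, as were 29.4% of all genes. No marker was listed at 0. Elane (neutrophil elastase) was lower in both tumors, with 62.6 and 28.9, against 76.2 and 105 in normal ureter, and for Ngp and Mmp9 the groups overlapped. The precursor gene Mpo (myeloperoxidase) had 201 and 7.47 in tumors, against 8.38 and 27.5 in normal ureter. The granule gene Ltf (lactoferrin) had 12837 and 401 in tumors, against 8.04 and 14.0 in normal ureter. S100a9, a calcium-binding protein abundant in neutrophils, had 3997 and 439.9 in tumors, against 99.0 and 53.2 in normal ureter. Lcn2, the brightest marker, which injured kidney also makes, had 917 and 18261 in tumors, against 90.8 and 80.6 in normal ureter. S100a8 had 5313 and 467 in tumors, against 115 and 85.9 in normal ureter. Csf3r had 297 and 142 in tumors, against 92.9 and 18.9 in normal ureter. Of the markers too dim to be tested, Camp, Cxcr2 and Mmp8 were higher on both tumor arrays than on both normal arrays, but Mpo was not. The tumor arrays were further apart for Ltf, S100a8, S100a9 and Csf3r than for Olfm4, and for Lcn2 they were in the opposite order. For Csf3r they were closer together than for Ltf. The part of neutrophils in the Olfm4 signal was not tested.

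The promoters of Olfm4 and Muc1 are shown because Olfm4 had the largest difference and Muc1 is a membrane mucin with a higher signal in both tumors and only 1 probe set. Both come from RefSeq (GRCm38.p6), from 250 bases before to 50 after the start site, at chr14:80000052-80000351 (plus strand) and chr3:89228806-89229105 (plus strand), and 7 of the 10 genes had an entry. Capitals mark matches to the NF-kB consensus, a site of a factor that drives inflammatory genes, and to TATAAA, on both strands.
Olfm4: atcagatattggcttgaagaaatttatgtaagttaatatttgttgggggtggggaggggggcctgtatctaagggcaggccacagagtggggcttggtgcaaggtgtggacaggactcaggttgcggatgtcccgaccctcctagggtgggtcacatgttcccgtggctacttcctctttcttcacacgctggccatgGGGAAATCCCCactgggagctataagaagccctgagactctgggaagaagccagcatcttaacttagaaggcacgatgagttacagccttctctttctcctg
Muc1: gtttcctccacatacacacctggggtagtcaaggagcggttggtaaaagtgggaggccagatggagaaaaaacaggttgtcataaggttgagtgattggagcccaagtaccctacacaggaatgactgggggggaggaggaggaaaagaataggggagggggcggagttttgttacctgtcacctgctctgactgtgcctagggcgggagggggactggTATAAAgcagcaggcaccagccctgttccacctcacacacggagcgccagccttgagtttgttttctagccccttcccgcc
In the Olfm4 promoter 2 overlapping matches to the NF-kB consensus joined into a run of 11 bases that begins 52 bases before the start site, and the Muc1 promoter holds TATAAA 31 bases before its start site. Of 32851 promoters of this length, 8.46% held an NF-kB consensus match and 13.6% held TATAAA. Among the 10 genes Muc16 also had an NF-kB consensus match, after its start site, and Muc4 had TATAAA. The Olfm4 promoter also holds 1 match to TGGGAA, the core of the site of the Notch factor RBPJ. So do the Agr2 promoter, only 1 of the Muc13 promoter entries and 25.6% of all promoters. TGANTCA, the AP-1 site, is found in each Muc13 promoter entry and in 7.81% of all. These matches describe the sequence and were not tested for binding.

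Muc1, the transmembrane mucin of most glandular epithelia, was higher in both tumors than in either normal sample. Its signal (1449199_at) was 571 and 1480.3 in tumors, against 508 and 206 in normal ureter. Tumor replicate 1 was only slightly above normal replicate 1, and each group was spread widely. The means were 1025 ± 643 in tumors and 357 ± 213 in normal ureter (SD, n = 2 each), a difference of 1.46 on the log2 scale (SE 0.67). Tumor replicate 1 differed from the normal mean by 0.78 and tumor replicate 2 by 2.13.

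Muc4, a membrane mucin that binds the receptor Erbb2, gave probe sets that disagreed. The brightest, 1438555_x_at, had 213 and 253 in tumors, against 66.3 and 41.3 in normal ureter, a difference of 1.86 (SE 0.37) with tightly grouped arrays. Its name marks probes that can match other transcripts. The probe set 1427398_at had 39.6 and 45.4 in tumors, against 71.9 and 26.4 in normal ureter (difference -0.06), so its groups overlapped. The dim 1432119_at had 2.62 and 5.68 in tumors, against 5.98 and 13.4 in normal ureter (difference -0.34). Averaging the 3 probe sets gave 0.48, so the higher Muc4 signal rests on the probe set with shared probes.

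Muc20, a mucin first described in kidney, overlapped between the groups. Its brighter probe set, 1451786_at, had 329.5 and 888 in tumors, against 900.04 and 295 in normal ureter, a difference of 0.07 (SE 0.76). The normal arrays alone were at least as far apart as the tumor arrays. The other probe set, 1442960_at, had 6.08 and 127 in tumors, against 77.2 and 58.7 in normal ureter (difference -0.57), so both probe sets were higher on tumor replicate 2 than on tumor replicate 1. Muc20 and Muc4 are adjacent protein-coding genes in the RefSeq gene table (GRCm38.p6).

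Most kidney transcripts had the same order of tumor arrays as Muc1 and Muc20, with 10 of 11 higher on tumor replicate 2 than on tumor replicate 1 and the water channel Aqp3 lower. Over all genes tested, tumor replicate 1 was above tumor replicate 2 for 51.2%. The 11 kidney tubule and collecting duct markers summed to 14762 and 136178 in tumors, against 29357 and 33187 in normal ureter, and 0 of 11 passed the test. Their median difference was -2.94 on tumor replicate 1 and 2.51 on tumor replicate 2. On tumor replicate 1 the difference was 0.78 for Muc1 and -0.63 for Muc20. Umod (uromodulin), the brightest, had 1268 and 57258 in tumors, against 4997 and 9982 in normal ureter. Muc1 and Muc20 are both transcribed in kidney tubules, and the part of kidney tissue in their signals was not tested. The normal arrays were at least 2-fold apart for Muc1 and Muc20 alone of the 10 genes by the probe set with the highest mean, as for 3.52% of all genes tested. Both genes were higher on normal replicate 1 than on normal replicate 2. Kidney markers went either way there. Umod was lower on normal replicate 1, and Cdh16 was higher, at 4476 against 2782.

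Muc13, Muc16 and Agr2 were high on tumor replicate 1 and below both normal arrays on tumor replicate 2. Among genes tested this order held for 2 of the 7 (Muc13 and Muc16) and for 8.95% of all genes, and the tumor arrays were at least 4-fold apart on the log2(signal + 16) scale for the same 2 of 7, against 8.52% of all genes. Muc13, a mucin with EGF-like domains typical of the gut, had 279 and 39.5 in tumors by 1419387_s_at, against 76.9 and 59.1 in normal ureter, a difference of 0.62 (SE 0.91). The name of this probe set, too, marks probes shared with other transcripts. Its dimmer probe set, 1419386_at, gave the same order, with 98.2 and 1.75 in tumors, against 25.4 and 49.1 in normal ureter, with a log2 difference of -0.21. On the linear scale the tumor mean of this probe set was the higher, at 49.96 ± 68.2 in tumors and 37.3 ± 16.8 in normal ureter (SD, n = 2 each), so its sign depended on the scale.

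Muc16, the very large membrane mucin known as the source of CA125 in humans, had 311 and 35.5 in tumors by 1432358_at, against 172 and 101 in normal ureter. The normal arrays lay between the tumor arrays, and the mean difference of -0.20 (SE 1.01) averaged 1.14 for tumor replicate 1 and -1.53 for tumor replicate 2. The linear means had the opposite order, at 173 ± 195 in tumors and 137 ± 50.2 in normal ureter (SD, n = 2 each). Mesothelium is a known site of Muc16, and its 8 markers summed to 14007 and 7026 in tumors, against 16222 and 22002 in normal ureter, with 0 of 8 past the test. Krt19 and Upk3b, which are also in the epithelial and umbrella cell lists, carried most of the normal sum, and the other 6 summed to 3266 and 3841 in tumors, against 2087 and 1440 in normal ureter. Msln (mesothelin), the binding partner of Muc16, had 2143 and 546 in tumors, against 316 and 149 in normal ureter, a difference of 2.24 (limma adjusted p = 0.224), while the mesothelial gene Lrrn4 had 0.956 and 41.2 in tumors, against 308 and 173 in normal ureter. Msln made up most of the sum of those 6 on tumor replicate 1, and Gpm6a, at 2929, most of it on tumor replicate 2. Of the 8 markers, 3 were lower in both tumors than in either normal sample (Upk3b, Lrrn4 and Rspo1), as were 27.7% of all genes tested. Only 1 was higher in both (Msln), as were 29.4% of all genes. The part of mesothelium in the Muc16 signal was not tested.

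Agr2 was below the limit for testing. Its probe set 1419268_at had 159.7 and 2.08 in tumors, against 30.7 and 31.3 in normal ureter, a mean difference of 0.26, with 1.90 for tumor replicate 1 and -1.38 for the other tumor. Its second probe set, 1455802_x_at, had 37.9 and 33.7 in tumors, against 21.0 and 21.96 in normal ureter (difference 0.47), all dim, and did not show the gap between the tumors. Muc5b, the gel-forming mucin of airways, had 30.5 and 4.12 in tumors, against 3.15 and 4.95 in normal ureter, and no array reached 54.6. Muc15, a membrane mucin of the milk fat globule, had 103 and 23.0 in tumors, against 2.66 and 2.31 in normal ureter, with separate groups and a difference of 1.88 on the log2(signal + 16) scale. Only tumor replicate 1 was above 54.6 for Muc15, and a signal this low on the normal arrays leaves the size of the difference to the pseudocount.

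Tff2 was lower on both tumor arrays than on both normal arrays, the only 1 of the 10 with that order by its brightest probe set. It had 28.4 and 87.4 in tumors, against 127 and 94.4 in normal ureter, a difference of -0.89 (SE 0.56), with -1.50 on tumor replicate 1 and -0.28 on tumor replicate 2. Tumor replicate 2 was close to normal replicate 2, and all 4 signals were low. Tff2 lies between Tff3 and Tff1 in the RefSeq gene table. Tff1, the trefoil peptide of the stomach surface, had 439 and 239 in tumors, against 331.5 and 256 in normal ureter (difference 0.15, limma adjusted p = 0.865), and Tff3 had at most 25.0 on any array.

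**Figure D2:**
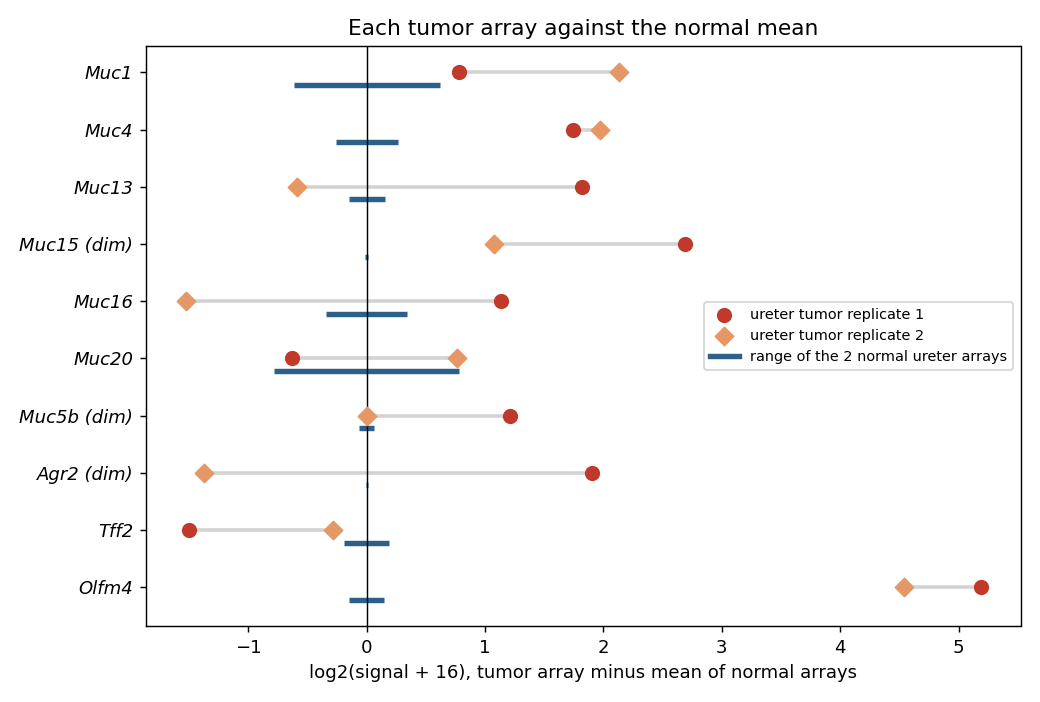
Difference of each ureter tumor array from the mean of the normal ureter arrays on the log2(signal + 16) scale, by the brightest probe set of each gene, with the range of the 2 normal arrays as a bar just below. Genes named as dim were under the limit for testing. Olfm4 lies at 5.19 and 4.54, whereas for Muc13, Muc16 and Agr2 the tumor arrays lie on opposite sides of the normal range.

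Other genes of mucus and goblet cells did not pass the test, and several differed widely between the tumor arrays. Of 14 trefoil, anterior gradient and goblet cell genes other than the 10, 7 were bright enough to be tested, 0 rose, 0 fell and 7 did not pass, with a median difference of 0.15. Pigr, which carries IgA across epithelium, had 17326 and 2508 in tumors, against 252 and 311 in normal ureter, a difference of 4.48 (SE 0.99, limma adjusted p = 0.125). Fcgbp, a mucus protein, had 7304 and 286 in tumors, against 162 and 129.7 in normal ureter (difference 3.21, limma adjusted p = 0.34). Zg16, a lectin of intestinal mucus, had 10.6 and 50.8 in tumors, against 608 and 52.9 in normal ureter (difference -2.30, limma adjusted p = 0.368). Clca1, a secreted goblet cell protein named here after its values were seen, had 25377 and 11.1 in tumors, against 27.9 and 1.49 in normal ureter (difference 4.90, limma adjusted p = 0.475). Klk1, a tissue kallikrein of kidney and glands and the brightest of the list, had the opposite order, with 202 and 26393 in tumors, against 10979 and 14415 in normal ureter (difference -2.39, limma adjusted p = 0.613). Fcgbp and Clca1 were thus highest on the array where Muc13, Muc16, Agr2 and Muc5b were highest, as were Pigr, Olfm4 and Muc15. Tumor replicate 1 was above tumor replicate 2 for 51.2% of all genes tested. On tumor replicate 2, Fcgbp was still above both normal arrays and Clca1 lay between them. Muc13, Muc16 and Agr2 were below both on that array, by their brightest probe sets.

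**Figure D3:**
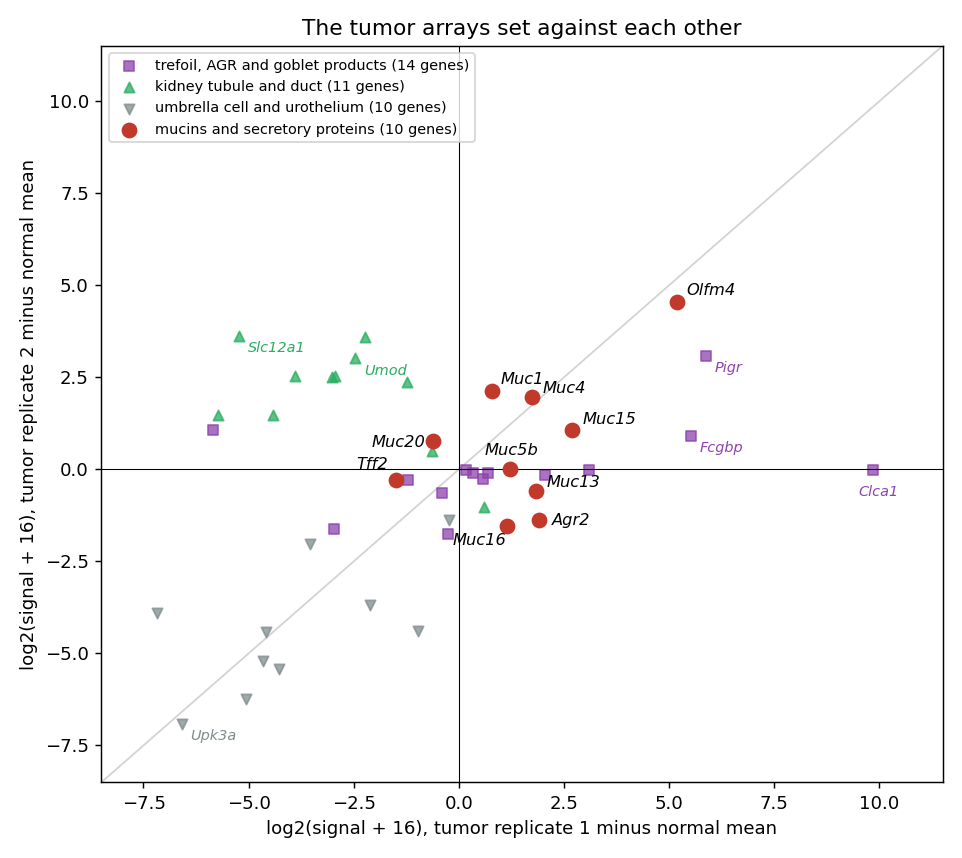
Difference from the normal ureter mean on the log2(signal + 16) scale, with tumor replicate 1 on the horizontal axis and tumor replicate 2 on the vertical axis, for the 10 genes (red) and for measured genes of 3 marker or gene lists. Each gene is drawn by its brightest probe set, and the grey diagonal is equality of the tumor arrays. Muc13, Muc16 and Agr2 lie to the lower right of the origin, Clca1 lies far right at 9.84 and -0.03, most kidney genes lie upper left, and Olfm4 lies near the diagonal.

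Markers of other mucus-bearing epithelia were mixed. Intestinal markers summed to 7343 and 4423 in tumors, against 1386 and 1807 in normal ureter, with 0 of 5 tested genes past the test. Reg3g carried the sum on tumor replicate 1 and Guca2b with Vil1 that on tumor replicate 2, and the other 8 genes summed to 710.2 and 476 in tumors, against 728 and 554 in normal ureter. The intestinal factor Cdx2 was at 10.04 and 3.87 in tumors, against 10.3 and 15.7 in normal ureter. Stomach markers summed to 689.7 and 463 in tumors, against 925 and 685 in normal ureter, with 0 of 2 past the test. Airway and gland markers summed to 13209 and 868 in tumors, against 342 and 179 in normal ureter, with 0 of 2 past the test, and Ltf, which is also in the neutrophil list, made up most of the sum of tumor replicate 1. Basal urothelium markers summed to 120157 and 9947 in tumors, against 10657 and 14629.7 in normal ureter, with 0 of 7 past the test. The basal sum therefore had the same order of tumor arrays as Muc13, Muc16 and Agr2. Gene by gene, 4 of the 7 were higher in each tumor than in either normal sample, as were 29.4% of all genes tested. For Krt5 (the brightest), Trp63 and Cd44 the groups overlapped. Krt5 had 15780 and 628 in tumors, against 3415 and 5518 in normal ureter. Trp63 had 10167 and 440 in tumors, against 2446 and 3847 in normal ureter. Krt5 and Trp63 were thus below both normal arrays on tumor replicate 2, whereas Cd44 lay between them. The median difference of the list was 2.32 on tumor replicate 1 and 0.57 on tumor replicate 2. The part of basal urothelium in the signals of Muc13, Muc16 and Agr2 was not tested.

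Among other mucins 8 of 17 listed genes were measured, 3 were bright enough to be tested and 0 of 3 passed. The sialomucin Cd164 had 17614 and 12637 in tumors, against 12054 and 11504 in normal ureter (difference 0.34, limma adjusted p = 0.487). Prg4 (lubricin) and the endothelial mucin Emcn had differences of -0.55 and -0.08 (limma adjusted p = 0.628 and 0.928). The gel-forming mucins Muc2 and Muc5ac, named outside the rule, did not exceed signals of 24.4 and 10.3 on any array.

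Enzymes of mucin-type O-glycosylation gave 0 of 24 tested genes past the test, with a median difference of 0.27, and the tumors were both higher than either normal sample for 7 genes and both lower for 4, where 29.4% and 27.7% of all genes had these orders. Galnt3, which starts O-glycan chains, had 1332 and 1589 in tumors, against 505 and 342 in normal ureter, a difference of 1.77 (SE 0.28, limma adjusted p = 0.0807). St6galnac2, a sialyltransferase of O-glycans, had 2109 and 1520.1 in tumors, against 740.1 and 893 in normal ureter (difference 1.12, limma adjusted p = 0.129). Galnt18, assigned to the same enzyme family as Galnt3, had a difference of 0.77 (limma adjusted p = 0.173).

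Transcription factors of secretory and barrier epithelium gave 0 of 9 past the test, with a median difference of 0.49. Grhl1, a grainyhead factor, had 236 and 103 in tumors, against 676 and 738 in normal ureter (difference -2.06, limma adjusted p = 0.123). The epithelial ETS factor Elf3 had a difference of 1.26 (limma adjusted p = 0.192) and Grhl3, a factor of umbrella cells, one of -2.68 (limma adjusted p = 0.308).

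In the olfactomedin family 0 of 7 genes other than Olfm4 passed, with a median of 0.17. Olfml3, a secreted matrix protein, had 1785 and 969.98 in tumors, against 417 and 319.8 in normal ureter (difference 1.81, limma adjusted p = 0.119). Olfm1 had a difference of 1.48 (limma adjusted p = 0.179) and Olfml2a one of -2.18 (limma adjusted p = 0.207), and the groups did not overlap for any of these 3 genes.

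Receptors, ligands and proteases that bind or cut membrane mucins gave 0 of 16 past the test, with a median of 0.74. Icam1, an adhesion molecule that binds Muc1 in humans, had 2758 and 1802 in tumors, against 388 and 349 in normal ureter, a difference of 2.55 (SE 0.28, limma adjusted p = 0.0505). Mmp7 (matrilysin) had 530.3 and 2395 in tumors, against 18.0 and 6.03 in normal ureter (difference 5.39, limma adjusted p = 0.0777), and the receptor Met had a difference of 0.996 (limma adjusted p = 0.156). Over all 66 tested genes of these lists, 0 passed the limma test (1.43% of all genes tested were called), and 16 had an unadjusted p under 0.05, of which 13 were higher and 3 lower. That is 24.2% of the 66, against 21.5% of all genes tested. Without either normal array 0 of the 66 passed. Without tumor replicate 1 the count was 29, where 32.9% of all genes passed, and without tumor replicate 2 it was 44, where 42.2% of all genes passed. In both, the lone tumor array is assumed to vary like the normal arrays.

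Genes with the profile most like each of the 7 tested genes were sought by the Euclidean distance between log2(signal + 16) values over the 4 arrays, each centred on its mean. Nearest to Olfm4 were the light chain gene Igkv9-120 and Inhba, a subunit of activin, at distances of 0.51 and 0.521. Igkv9-120 had 1265 and 1134 in tumors, against 30.6 and 45.9 in normal ureter. Nearest to Muc4 was Galnt3, at 0.0901, followed by Fkbp1b at 0.206. Nearest to Muc1 were Fhod3 and Stk39, to Muc20 Smyd1 and Bspry, to Muc13 Mall and Sulf1, to Muc16 Dram1 and Arntl2, and to Tff2 Scarf1 and Angpt1, at distances between 0.0254 and 0.33. These distances describe 4 arrays and carry no test.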

How the data were processed

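The authors deposited linear MAS5 signal intensity per probe set, per the submitters' processing notes, and each array's mean after trimming was 500. The sources used here give no MAS5 version, detection calls or filters. RNA was prepared with Trizol and a column, and cRNA made from 6 ug, per the labels' protocols. Of 45101 probe sets, 64 controls were left out, and 34945 had a single gene symbol.

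Signals were taken as log2(signal + 16). For a gene with several probe sets the one brightest on average stood for it, and the 13046 genes at or above the 40th percentile were tested with limma 3.58.1 in R 4.3.3 (intensity trend, two-sided, Benjamini-Hochberg adjustment over all genes tested, threshold 0.05, 2 residual and 2.11 prior degrees of freedom). With 2 against 2 arrays, p-values measure only the spread between these samples. The script was tested on simulated data with equal spread in both groups and effects only in bright genes with a single probe set. That test does not cover dim genes or tumor arrays that differ widely.

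Members and lists were chosen with earlier results of these data known. Named genes are the members, up to 3 genes of each related list with the smallest p, the brightest or called marker genes, and the 2 nearest profiles. A few exceptions are named as such, and further members of marker lists were picked after their values were seen. Alternatives covered the pseudocount, normalization, filter, probe sets, variance model, the replicate number as a block and leaving out each array. Figures were drawn with matplotlib 3.10.9.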

Additional observations from a re-analysis of the deposited data

How the results depend on the processing

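Olfm4 kept its direction under all 14 alternatives, between 4.14 with a pseudocount of 64 and 5.20 with a pseudocount of 1. Muc1, Muc4 and Tff2 kept theirs under each alternative that tested them. Much of this was fixed in advance. The filter, the variance model and the block leave the difference of a gene unchanged. Leaving out 1 array cannot change its sign where the groups do not overlap, as for these genes. Among the 10 genes, the count past the limma threshold was 1 at the settings used, and it was 0 with median centring, 0 without the intensity trend and 0 with the replicate number as a block. Leaving out 1 array at a time gave 0 to 5 members, with 0 without normal replicate 1 or normal replicate 2, 4 without tumor replicate 1 (Muc1, Muc4, Muc16 and Olfm4; 32.9% of all genes) and 5 without tumor replicate 2 (Muc4, Muc13, Muc16, Tff2 and Olfm4; 42.2% of all genes). Muc16 changed sign without normal replicate 1 and between those last settings, at -1.53 and 1.14, and Muc13 was at -0.59 without tumor replicate 1. Muc20 changed sign when its probe sets were averaged and without normal replicate 2 or tumor replicate 2. The 66 related genes gave 0 calls at the settings used and 1 (Icam1) with a pseudocount of 64, a filter at the 60th percentile or a robust trend, and 0 to 44 when an array was left out.

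Over all genes 187 passed the test, 35 with median centring, 104 with probe sets averaged per gene, 2 without the intensity trend and 0 with the replicate block, with 2253 at an unadjusted p under 0.05. Leaving out an array gave 0 to 5502. The cause of these shifts was not tested. The labels do not state that equally numbered arrays are paired, so the numbers are not taken to pair the samples. The deviations of equally numbered arrays correlated with r = 0.0391 across 13046 genes. With 2 arrays per group, that value cannot show whether samples were paired. Signals under about 54.6 limit what can be said of Muc15, Muc5b and Agr2.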

Other observations

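Some further genes of the lists stood out on a single tumor array and were picked after their values were seen. Itln1 (intelectin), a goblet cell lectin, had a signal of 163.8 and 4.67 in tumors, against 5.39 and 4.43 in normal ureter, and was too dim to be tested. Reg3g, an antimicrobial lectin of the gut, had 6590 and 98.9 in tumors, against 12.6 and 14.5 in normal ureter (difference 4.88, limma adjusted p = 0.278). Guca2b (uroguanylin), a peptide of gut and kidney, went the other way, with 9.37 and 2430.1 in tumors, against 485 and 1008 in normal ureter (difference -1.52, limma adjusted p = 0.747).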
